A study of Mus musculus with 10 samples.

Results

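The 10 genes described here encode factors that direct the growth and maturation of blood vessels and the transcription response to low oxygen. They are Vegfa, Vegfb, Vegfc, Pgf, Angpt1, Angpt2, Hif1a, Epas1, Egln3 and Adm, chosen by name, and each was read from 1 probe set annotated with that symbol alone, among 29766 genes in all. Total RNA came from inner ear tissue, labelled as cochlea, of CBA/CaJ mice that were 6 months old and heard normally. The 5 runner arrays came from mice housed singly with a running wheel, and the 5 control arrays from mice housed singly without one. The series asks how long-term voluntary running bears on hearing loss with age, which this strain shows late in life, but both groups here were young. The labels give neither the length of wheel access nor the animal behind each array, so the spread that p-values rest on may be technical.

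Members of the VEGF family bind receptor tyrosine kinases on endothelial cells, VEGF-A and placental growth factor on blood vessels and VEGF-C mainly on lymphatic vessels. Angiopoietin 1 stabilizes vessels through the receptor TIE2, and angiopoietin 2 modifies that signal. In low oxygen the prolyl hydroxylases that mark HIF alpha subunits for destruction lose activity, the subunits pair with ARNT, and the pair binds short motifs with a CGTG core in target genes such as Vegfa, Adm and Egln3. HIF alpha subunits are regulated mostly as proteins, so an RNA level does not report HIF activity. In the cochlea, capillaries of the stria vascularis and spiral ligament supply the tissue that sets the potential of the inner ear fluid.

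None of the 10 genes passed the test between runners and controls, and no difference was larger than 1.12-fold. The limma adjusted p-values of the 10 lay between 0.678 and 0.999, where 0.00672% of all genes passed at an adjusted p under 0.05. At an unadjusted p under 0.05, 0 of the 10 were higher and 2, Vegfc and Angpt1, were lower in runners, where 3.21% of all genes were higher and 3.92% lower at that level. In all, 4 of the 10 were higher and 6 lower, and the median log2 difference was -0.008 over the 10 and 0.00091 over all genes. The groups overlapped for each of the 10, whereas they did not overlap for 0.927% of all genes. The standard errors of the 10 differences ran between 0.053 and 0.104 log2. The 95% intervals of the ratio of runners to controls reached no lower than 0.78 and no higher than 1.17 over the 10 genes. A filter on dim genes, at the median over all genes of 5.40 log2, kept 9 of the 10 and left out Pgf.

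**Figure D1:**
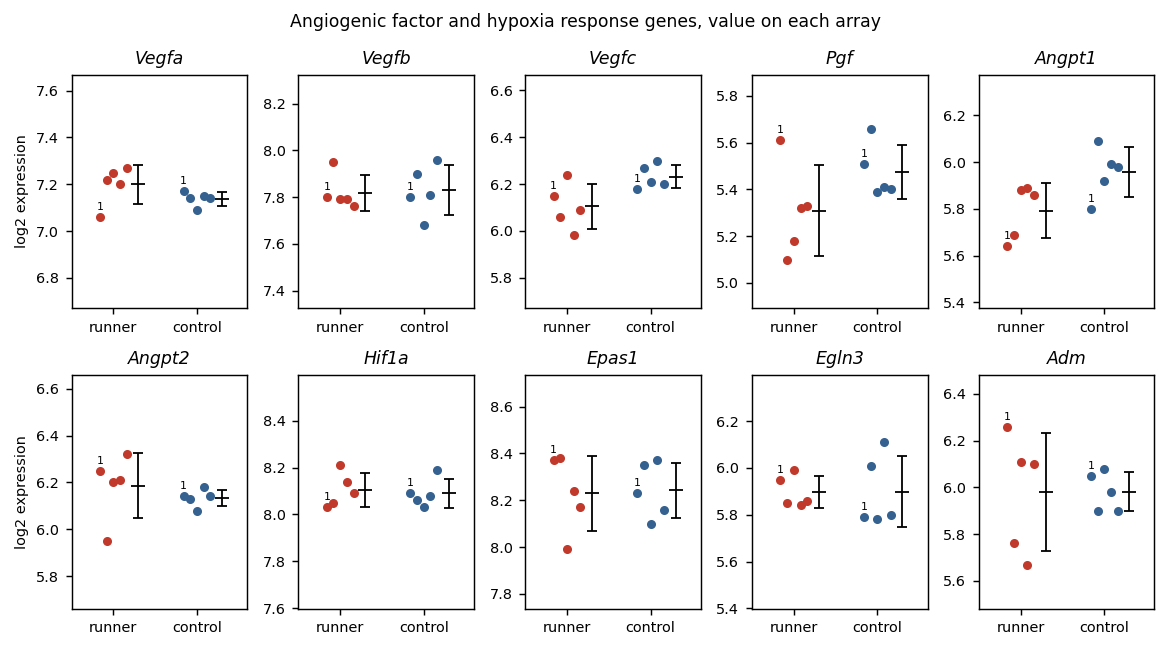
Log2 expression on each array for the 10 genes, with runners in red on the left and controls in blue on the right of each panel; the black mark and bar are the mean and SD of 5 arrays, the digit 1 marks replicate 1 of each group, and all vertical axes span the same number of log2 units. The groups overlap in every panel, and the runner arrays of Adm lie on both sides of the controls.

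The samples held other tissue beside cochlea, and markers of some of it differed between the groups. Coch, a defining gene of the cochlear lateral wall, averaged 11.09 in runners and 11.23 in controls. The mean of all 9 lateral wall markers was 7.36 in runners and 7.60 in controls, a difference of -0.235 ± 0.1 log2 (SE). Of the 9, 8 were lower, 5 of them at an unadjusted p under 0.05, where 3.92% of all genes were lower. After adjustment 0 of the 9 passed. The mean of 8 hair cell markers was 5.02 in runners and 5.19 in controls. Of these 8, Slc26a5, Pou4f3, Tmc1, Loxhd1 and Chrna9 lay below the dim filter. Means of the marrow markers were 7.80 to 8.33 in runners and 8.02 to 8.41 in controls. Means of the bone markers were 7.53 to 7.89 in runners and 7.98 to 8.24 in controls. The bone difference, -0.418 ± 0.075 log2 (SE), was the largest of any marker list. Of 8 bone markers, 7 were lower, 6 of them at an unadjusted p under 0.05. After adjustment 2 passed, Bglap (-0.85, limma adjusted p = 0.000402) and Bglap2 (-0.95, adjusted p = 0.000806). No other gene in the whole comparison passed. Adipocyte markers averaged 5.58 to 6.11 in runners and 5.16 to 5.53 in controls, and skeletal muscle markers 7.73 to 8.75 in runners and 7.78 to 8.49 in controls. Runner 1 had the highest marrow mean of the runners and control 1 the lowest of the controls. With so much tissue in a sample, fewer cells of a type and less RNA per cell cannot be told apart.

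Vegfa, the main vessel growth factor, was near level between the groups, with most runners slightly above the controls. Its log2 values were 7.06, 7.22, 7.25, 7.20 and 7.27 in runners 1 to 5, against 7.17, 7.14, 7.09, 7.15 and 7.14 in controls 1 to 5. Runners 2 to 5 lay above every control and runner 1 below every control. The difference was 0.06 ± 0.053 log2 (SE; limma adjusted p = 0.817), with a 95% interval of the ratio between 0.965 and 1.13. Without runner 1 it was 0.10 log2, still short of the threshold (adjusted p = 0.397, within 0.381 to 0.992 over all alternatives). With single arrays left out the Vegfa difference ran between 0.05 and 0.10 log2.

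Vegfb, a family member linked to heart and muscle vessels and lipid uptake, was near level between the groups. Runners 1 to 5 had 7.80, 7.95, 7.79, 7.79 and 7.76, and controls 1 to 5 had 7.80, 7.90, 7.68, 7.81 and 7.96. Runner 2 and control 5 were the high arrays, and the other runners lay within the range of the controls. The difference was -0.01 ± 0.064 log2 (adjusted p = 0.983), with a 95% interval of the ratio between 0.901 and 1.09.

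Vegfc, the lymphatic growth factor, was lower by 1.09-fold in runners at an unadjusted p under 0.05 but not after adjustment. Its log2 values were 6.15, 6.06, 6.24, 5.98 and 6.09 in runners 1 to 5, against 6.18, 6.27, 6.21, 6.30 and 6.20 in controls 1 to 5. All runners but runner 3 lay below every control. The difference was -0.13 ± 0.058 log2 (unadjusted p = 0.0468, limma adjusted p = 0.691). It ran between -0.16 and -0.10 when single arrays were left out.

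Pgf, placental growth factor, had one of the 2 largest differences of the 10 and one of the widest spreads among runners. Runners 1 to 5 had 5.61, 5.10, 5.18, 5.32 and 5.33, and controls 1 to 5 had 5.51, 5.66, 5.39, 5.41 and 5.40. Runners 2 to 5 lay below every control, while runner 1 lay above all controls but control 2. The difference was -0.16 ± 0.092 log2 (adjusted p = 0.740), and it ran between -0.24 and -0.11 when single arrays were left out. Without runner 1 it was -0.24 log2 (adjusted p = 0.159), the smallest adjusted p of any of the 10 genes in any alternative tried (those of Pgf reached 0.992). Runner 1 lay toward the controls, so leaving it out widens the difference by itself. Pgf lay below the dim filter, and log2 values of dim probe sets understate differences.

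The angiopoietins differed in opposite directions, neither beyond the threshold. Angpt1, the TIE2 agonist, had 5.64, 5.69, 5.88, 5.89 and 5.86 in runners 1 to 5, against 5.80, 6.09, 5.92, 5.99 and 5.98 in controls 1 to 5. Runners 1 and 2 lay below every control, and runners 3 to 5 lay above control 1 and below the other controls. The difference in Angpt1 was -0.16 ± 0.071 log2, or 1.12-fold (unadjusted p = 0.0418, limma adjusted p = 0.678).

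Angpt2, which is released by activated endothelium, had 6.25, 5.95, 6.20, 6.21 and 6.32 in runners 1 to 5, against 6.14, 6.13, 6.08, 6.18 and 6.14 in controls 1 to 5. Every runner but runner 2 lay above every control, and runner 2 lay below them all. The difference in Angpt2 was 0.05 ± 0.068 log2 (adjusted p = 0.900), and it was 0.11 without runner 2 and 0.02 without runner 5. Its SD was 0.14 in runners and 0.04 in controls. The SD was larger in runners for 8 of the 10 genes, where the same held for 67.6% of all genes, and this was not tested.

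Beside these ligands, the endothelium markers averaged 6.48 to 6.68 in runners and 6.56 to 6.72 in controls, a difference of -0.088 ± 0.052 log2 (SE). Of the 7 markers, 6 were lower in runners, 0 of 7 at an unadjusted p under 0.05, and all 7 lay above the dim filter. The means of 9 pericyte and smooth muscle markers were 6.77 to 6.93 in runners and 6.70 to 6.86 in controls. Of these 9, 5 were higher and 4 lower in runners. The smooth muscle genes Tagln (0.25 log2, limma adjusted p = 0.607), Myh11 (0.21) and Acta2 (0.13) were among the higher ones. Pdgfrb (-0.14) and Abcc9 (-0.09) were among the lower ones. The part of vessel content in the ligand values was not tested.

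The oxygen-sensing transcription factors were level. Hif1a, the subunit found in most cells, had 8.03, 8.05, 8.21, 8.14 and 8.09 in runners 1 to 5, against 8.09, 8.06, 8.03, 8.08 and 8.19 in controls 1 to 5. Epas1, which encodes HIF-2 alpha and is prominent in endothelium, had 8.37, 8.38, 7.99, 8.24 and 8.17 in runners 1 to 5, against 8.23, 8.35, 8.10, 8.37 and 8.16 in controls 1 to 5. For Hif1a only runner 3 lay outside the range of the controls, and for Epas1 runners 1, 2 and 3 did, in both directions. The difference was 0.01 ± 0.055 log2 for Hif1a (adjusted p = 0.977), with a 95% interval of the ratio between 0.929 and 1.10. For Epas1 it was -0.01 ± 0.084 log2 (adjusted p = 0.985), with an interval between 0.874 and 1.12.

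Egln3 encodes a prolyl hydroxylase that acts on HIF alpha and is itself a HIF target, and Adm encodes adrenomedullin, a vasodilating peptide that HIF also induces. Their upstream windows are shown because both are HIF targets whose windows hold the core letters, with Vegfa at its first listed start for comparison. The 250 bases before the start, from NCBI RefSeq on GRCm38.p6 and read on the gene's strand, were searched for ACGTG and GCGTG on both strands, the reverse complements being CACGT and CACGC. Matches are in capitals.
Adm, chr7:110627407-110627656, plus strand: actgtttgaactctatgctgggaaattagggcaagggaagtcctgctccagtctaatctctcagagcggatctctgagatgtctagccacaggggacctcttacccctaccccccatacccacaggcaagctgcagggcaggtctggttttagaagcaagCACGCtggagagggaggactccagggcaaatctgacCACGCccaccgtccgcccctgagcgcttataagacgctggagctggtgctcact
Egln3, chr12:54203875-54204124, minus strand: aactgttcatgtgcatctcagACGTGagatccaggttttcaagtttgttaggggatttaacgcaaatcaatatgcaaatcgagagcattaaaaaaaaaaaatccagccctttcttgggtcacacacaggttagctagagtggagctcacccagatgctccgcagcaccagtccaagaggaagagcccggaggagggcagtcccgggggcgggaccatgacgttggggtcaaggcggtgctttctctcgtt
Vegfa, chr17:46032378-46032627, minus strand: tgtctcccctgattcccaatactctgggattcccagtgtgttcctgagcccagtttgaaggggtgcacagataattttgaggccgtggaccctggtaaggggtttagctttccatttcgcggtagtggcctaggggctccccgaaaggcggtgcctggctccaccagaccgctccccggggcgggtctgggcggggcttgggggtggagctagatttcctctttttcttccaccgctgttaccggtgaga
The Adm window held CACGC beginning 90 and 54 bases before the start, the Egln3 window ACGTG beginning 229 bases before it, and this Vegfa window no match. The table lists a further Vegfa start, with the window chr17:46025164-46025413, which holds GCGTG beginning 218 and CACGT beginning 211 bases before it. That window lies downstream of the first start, on the gene's strand, and appears to lie within the gene. Its matches are therefore not upstream of the first start. Windows were found for 7 of the 10 genes, all but Angpt1, Angpt2 and Epas1, and 6 of their 9 windows held a match, the further Vegfa window among them. Of 32851 windows of the same length in the table, 16.6% held ACGTG, 28.2% GCGTG and 38.6% either. A match describes letters in the window and says nothing about binding.

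Egln3 was near level between the groups, at 5.95, 5.85, 5.99, 5.84 and 5.86 in runners 1 to 5, against 5.79, 6.01, 5.78, 6.11 and 5.80 in controls 1 to 5. All runners lay within the range of the controls, and controls 2 and 4 were the high arrays. The difference was -0.0034 ± 0.073 log2 (adjusted p = 0.997), with a 95% interval of the ratio between 0.894 and 1.11.

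Adm had equal means in both groups and the widest spread of the 10. Its log2 values were 6.26, 5.76, 6.11, 5.67 and 6.10 in runners 1 to 5, against 6.05, 5.90, 6.08, 5.98 and 5.90 in controls 1 to 5. Runners 1, 3 and 5 lay above every control and runners 2 and 4 below every control. The SD was 0.25 in runners and 0.08 in controls. The difference in means was 0.0012 ± 0.104 log2 (adjusted p = 0.999).

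**Figure D2:**
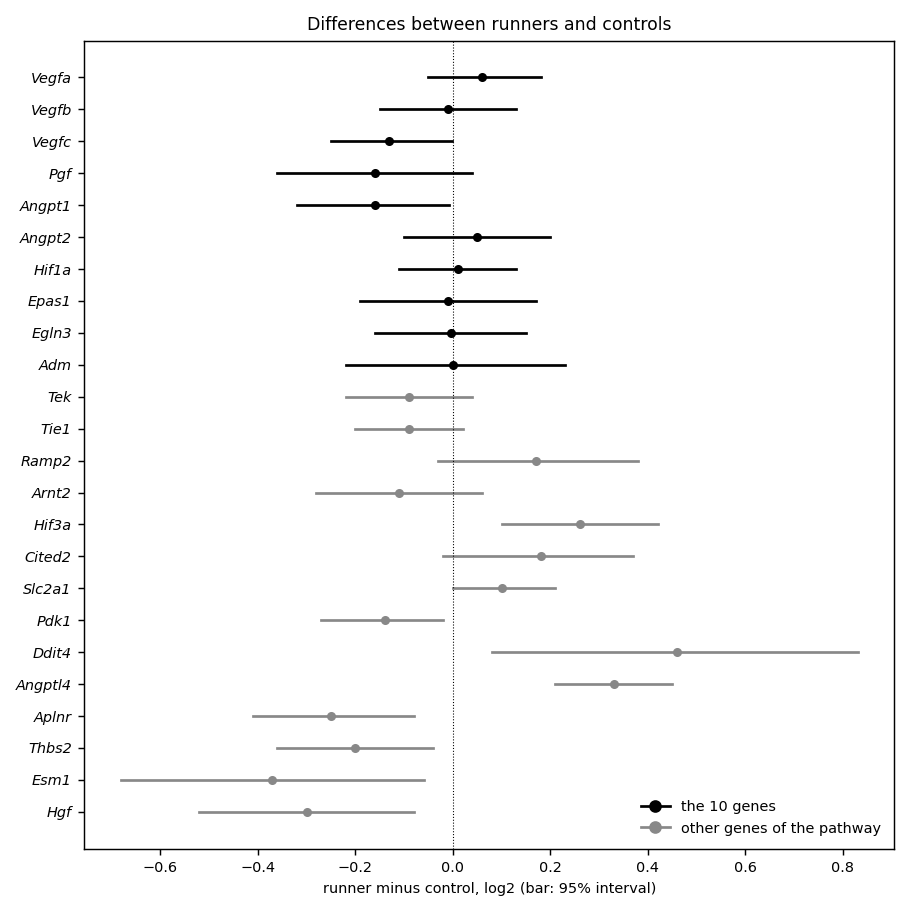
Runner minus control difference on the log2 scale for the 10 genes (black) and the other pathway genes named in the text (grey), with bars for the 95% interval of 5 against 5 arrays. The intervals of Vegfc and Angpt1 lie just below 0, those of the other 8 black genes include 0, and no gene shown passed the adjusted threshold.

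Receptors of these ligands did not pass in either direction. Of 9 measured receptor genes, 3 were higher and 6 lower in runners, with 0 at an unadjusted p under 0.05 and a median difference of -0.069 log2, against 0.00091 over all genes. The 3 with the smallest p were Tie1, the orphan partner of TIE2 (-0.09 ± 0.051 SE, adjusted p = 0.733), Ramp2, which makes the calcitonin-like receptor respond to adrenomedullin (0.17 ± 0.095, adjusted p = 0.734), and Tek, which encodes TIE2 (-0.09 ± 0.059, adjusted p = 0.775). Ramp2 had 6.29, 5.99, 6.50, 6.25 and 6.48 in runners 1 to 5, against 6.12, 6.16, 6.29, 6.10 and 5.97 in controls 1 to 5. Runners 3 and 5 lay above every control, and the other runners lay within the controls' range.

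Among 8 other genes of oxygen sensing, 5 were higher and 3 lower, with a median difference of 0.022 log2. At an unadjusted p under 0.05 there was 1, Hif3a, where 3.21% of all genes were higher at that level. It encodes an alpha subunit with forms that oppose HIF-1. Hif3a had 5.88, 6.05, 5.88, 6.14 and 5.97 in runners 1 to 5, against 5.82, 5.84, 5.76, 5.70 and 5.52 in controls 1 to 5. All 5 runners lay above all 5 controls, by a narrow margin, where the groups did not overlap for 0.927% of all genes. The difference was 0.26 ± 0.075 log2, or 1.19-fold (unadjusted p = 0.00459, limma adjusted p = 0.583). Cited2, which competes with HIF for its coactivators, followed (0.18 ± 0.089, adjusted p = 0.71, and 0.10 without runner 2). Arnt2, a partner of HIF alpha in neurons, was next (-0.11 ± 0.078, adjusted p = 0.783). With single arrays left out, Arnt2 ran between -0.17, without runner 1, and -0.08.

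Genes commonly induced by HIF showed no shared direction. Of 19 measured, 11 were higher and 8 lower in runners, with 2 higher and 1 lower by an unadjusted p under 0.05, against 3.21% of all genes higher and 3.92% lower, and 0 passed over all genes. Their median difference was 0.02 log2, and the mean of the list was 7.16 ± 0.07 in runners and 7.12 ± 0.02 in controls (SD, n = 5 each).

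The 2 that were higher at that level were Angptl4, a secreted inhibitor of lipoprotein lipase that PPARs and glucocorticoids also induce, and Ddit4, an inhibitor of mTORC1 that glucocorticoids also induce. Angptl4 had 6.31, 6.17, 6.35, 6.27 and 6.33 in runners 1 to 5, against 5.94, 6.02, 5.97, 5.98 and 5.87 in controls 1 to 5. All runners lay above all controls, where the groups did not overlap for 0.927% of all genes. The difference was 0.33 ± 0.054 log2, or 1.26-fold (limma adjusted p = 0.141). It passed without runner 1 (0.32, adjusted p = 0.0487) and with array weights (0.35, adjusted p = 0.0476), and its adjusted p ran between 0.0423 and 0.570 over all alternatives. Adipocytes express Angptl4, and 7 of 7 adipocyte markers were higher in runners, with a mean difference of 0.389 ± 0.123 log2 (SE). At an unadjusted p under 0.05, 5 of them were higher, where 3.21% of all genes were, and 0 passed after adjustment. Of these markers, Lep and Retn lay below the dim filter. The part of adipocyte RNA in the Angptl4 value was not tested.

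Ddit4 had 8.43, 7.94, 8.59, 8.52 and 8.51 in runners 1 to 5, against 8.26, 8.09, 8.12, 7.27 and 7.97 in controls 1 to 5. Runner 2 lay below all controls but control 4, the other runners lay above every control, and control 4 was far below the rest. The difference was 0.46 ± 0.173 log2 (adjusted p = 0.619), and 0.29 without control 4. Pdk1, which limits pyruvate entry into mitochondria, was lower (-0.14 ± 0.058, unadjusted p = 0.0291, adjusted p = 0.649). Slc2a1, the glucose transporter GLUT1, falls outside the rule for named genes. It was picked after its values were seen, because its groups did not overlap, as held for 0.927% of all genes. It had 8.66 to 8.80 in runners and 8.59 to 8.65 in controls, a difference of 0.10 ± 0.048 log2 (adjusted p = 0.698).

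Other vascular growth factors and inhibitors were more often lower in runners, without passing. Of 15 measured, 5 were higher and 10 lower, with 0 higher and 4 lower by an unadjusted p under 0.05, against 3.92% of all genes lower, with a median difference of -0.095 log2. The list was drawn up with earlier results of these arrays known, so its direction has no independent weight. The 4 were Aplnr, the apelin receptor (-0.25 ± 0.076, adjusted p = 0.592), Hgf, hepatocyte growth factor (-0.30 ± 0.101, adjusted p = 0.607), Thbs2, an inhibitor of vessel growth (-0.20 ± 0.074, adjusted p = 0.607), and Esm1, a gene of endothelial tip cells (-0.37 ± 0.144, adjusted p = 0.631).

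Aplnr and Hgf lay below the dim filter. Esm1 had 6.66, 6.33, 6.08, 5.96 and 5.83 in runners 1 to 5, against 6.23, 6.66, 6.53, 6.59 and 6.70 in controls 1 to 5. Runner 1 stood with the controls and control 1 with the runners. Hgf had 5.07, 4.64, 4.52, 4.57 and 4.67 in runners 1 to 5, against 4.87, 5.10, 4.86, 5.16 and 4.97 in controls 1 to 5, and again runner 1 lay among the controls. With runner 1 and control 1 left out together, Esm1 (-0.57, adjusted p = 0.0354) and Hgf (-0.42, adjusted p = 0.0381) passed. So did 1.43% of all genes, but none of the 10 factor genes. For Esm1 and Hgf these arrays lay toward the other group, so leaving them out widens the difference by itself. Over their other alternatives both genes reached an adjusted p of 0.992. The marrow marker mean differed by -0.293 ± 0.117 log2 (SE) between runners and controls, with 9 of 9 markers lower, and its part in these values was not tested.

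**Figure D3:**
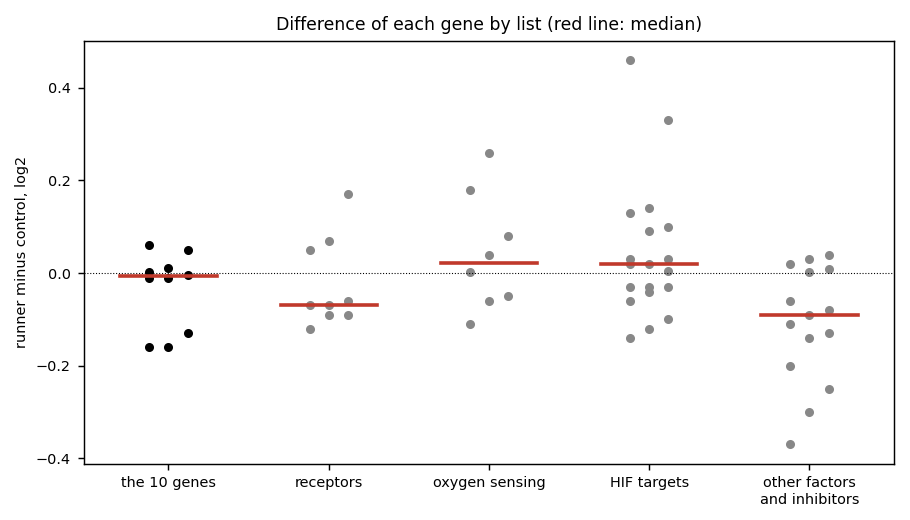
Runner minus control difference on the log2 scale for each measured gene (points), by list, with the median of each list as a red line. The medians are -0.008 for the 10 genes, -0.069 for receptors, 0.022 for oxygen sensing, 0.02 for HIF targets and -0.095 for other factors and inhibitors.

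Across the 10 arrays the genes did not vary as a block. Of the 45 pairs among the 10 genes, Pearson correlations ran between -0.69 and 0.55, and 0 pairs passed a permutation test after Benjamini-Hochberg adjustment (smallest adjusted p = 0.883). The strongest pair was Vegfa and Pgf, with r = -0.69 (permutation p = 0.0259) and Spearman's rho = -0.72 (permutation p = 0.0236). It was -0.68 without runners 1 and 5, the arrays farthest from the median of Vegfa, and -0.59 with the group means removed. Hif1a and Epas1 had r = -0.61 (permutation p = 0.0648) and rho = -0.50 (permutation p = 0.144), but -0.10 without runner 3 and control 5, so this relation rests on those arrays.

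Each gene was also set against the mean of 9 marker lists, 90 relations in all, of which 13 had a permutation p under 0.05 for r and 0 after adjustment. Vegfa ran against the marrow markers, with r = -0.87 (permutation p = 0.00146, adjusted 0.131) and rho = -0.79 (permutation p = 0.00942, adjusted 0.174). Without runners 3 and 5 it was -0.73, and with the group means removed -0.82. Runner 1, the lowest array for Vegfa, had a marrow mean of 8.33, and runners 3 and 5, the highest, had 7.80 and 7.81. Marrow was not alone in this. Vegfa also ran against the lateral wall (r = -0.71, permutation p = 0.0252; rho = -0.76), bone (r = -0.71, permutation p = 0.0236; rho = -0.67) and hair cell markers (r = -0.68, permutation p = 0.033; rho = -0.75). It ran with the adipocyte (r = 0.67, permutation p = 0.0321; rho = 0.68) and brain markers (r = 0.66, permutation p = 0.0375; rho = 0.68), and these 5 had permutation p between 0.0151 and 0.0394 for rho and adjusted p between 0.283 and 0.307 for r. The adipocyte relation rests on runners 3 and 5, without which r was 0.20. Without the 2 arrays farthest on their axes, r was -0.73 for lateral wall, -0.56 for bone, -0.59 for hair cell and 0.64 for brain markers. With the group means removed, r was -0.57 for lateral wall, -0.66 for bone and -0.54 for hair cell markers. In the same setting it was 0.51 for adipocyte and 0.55 for brain markers.

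Pgf ran with the endothelial markers, at r = 0.74 (permutation p = 0.0142, adjusted 0.283) and rho = 0.77 (permutation p = 0.0134, adjusted 0.174), and at 0.80 without runner 3 and control 4. Pgf ran with the hair cell markers as well, at r = 0.79 (permutation p = 0.0065, adjusted 0.283) and rho = 0.82 (permutation p = 0.00592, adjusted 0.174), and at 0.83 without runners 3 and 4. Both Pgf and most of the hair cell markers lay below the dim filter. Endothelium and hair cells were not alone in running with Pgf. Bone markers gave r = 0.72 (permutation p = 0.0195) and rho = 0.76, with r = 0.44 without runners 2 and 3. For lateral wall markers r was 0.65 (permutation p = 0.0412, rho = 0.77), and for marrow markers 0.64 (permutation p = 0.0499, rho = 0.78). Their adjusted p for r lay between 0.283 and 0.332. With the group means removed, r was 0.65 for endothelial, 0.71 for hair cell and bone, 0.51 for lateral wall and 0.48 for marrow markers.

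Hif1a and Epas1 ran in opposite directions with the brain markers. For Epas1 r was -0.76 (permutation p = 0.0105, adjusted 0.283) and rho -0.59 (permutation p = 0.0804, adjusted 0.351), and r was -0.51 without runner 3 and control 4. For Hif1a r was 0.73 (permutation p = 0.0179, adjusted 0.283) and rho 0.76 (permutation p = 0.0151, adjusted 0.174), and r was 0.65 without the same arrays. The brain marker means were 8.21 to 8.63 in runners and 8.13 to 8.40 in controls.

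Adm was the gene of the 10 that ran most closely with the mean of the 19 HIF targets. Its r was 0.75 (permutation p = 0.0139, adjusted 0.139 over 10 relations) and its rho 0.85 (permutation p = 0.00279, adjusted 0.0279). Without runners 3 and 5 r was 0.83, and with the group means removed 0.82. Runners 2 and 4, the lowest for Adm, had HIF target means of 7.08 and 7.10, and runners 1, 3 and 5 had 7.19, 7.23 and 7.22. The skeletal muscle marker means ordered the runners as the HIF target means did, at 8.06, 7.73, 8.75, 7.92 and 8.39 in runners 1 to 5. They did not order the controls so, as control 4 had the highest muscle mean (8.49) and a HIF target mean of 7.10. The HIF target means of the controls lay between 7.09 and 7.14. With the skeletal muscle mean, Adm had r = 0.55 (permutation p = 0.101) and rho = 0.61 (permutation p = 0.0664) over all arrays. The part of muscle RNA in the Adm values was not tested. For Vegfa the relation to the HIF target mean was r = 0.24 (permutation p = 0.497) and rho = 0.07 (permutation p = 0.865), and it turned to -0.85 without runners 3 and 5. For Angpt2 r was 0.65 (permutation p = 0.04, adjusted 0.200) and rho 0.50 (permutation p = 0.145), with r = 0.52 without those runners. All these values share the arrays and their normalization.

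**Figure D4:**
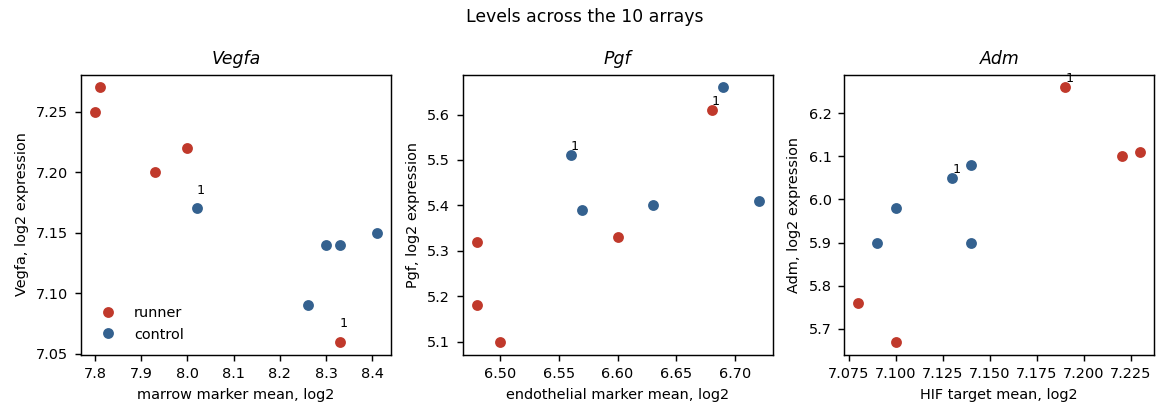
Log2 expression of Vegfa against the mean of the marrow markers, of Pgf against the mean of the endothelial markers and of Adm against the mean of the HIF targets, 1 point per array, runners in red and controls in blue, with the digit 1 beside replicate 1 of each group. Vegfa is lower on arrays with a higher marrow mean (r = -0.87), while Pgf (r = 0.74) and Adm (r = 0.75) are higher on arrays with higher means of their lists.

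The protein-coding genes whose pattern over the 10 arrays was most like that of Vegfa, of 18137 searched, were Fam161b (Pearson's r = 0.948), Ncoa7 (0.933) and Garem2 (0.926). Those most like Hif1a were Zfand1 (0.930), Epha4 (0.929) and Prkci (0.916). These are the highest of many correlations, so they are given as a description without a p. None of the 6 differed between runners and controls at an adjusted p under 0.05, and the smallest, for Ncoa7, was 0.718.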

How the data were processed

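Gene expression was measured with 1 array per sample on total RNA labelled by the WT PLUS kit, per the labels' protocols. The authors deposited log2 expression values, 1 for each transcript cluster. RMA (background correction, quantile normalization and probe summary) and Partek appear, with no version, per the submitters' processing notes. No genome build or filter is given in the sources used here. Of 39295 probe sets, 30130 had 1 gene symbol, and 827 symbols were updated through Entrez identifiers to NCBI RefSeq. Of several probe sets for a gene the one with the highest mean was kept.

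Genes were tested over the whole table with limma 3.58.1 in R 4.3.3 (2 groups and no covariate, two-sided tests, Benjamini-Hochberg adjusted, threshold 0.05). Standard errors and 95% intervals are moderated, and marker means carry the standard error of a difference in means. Correlations over arrays were tested with 99999 random permutations, two-sided. On simulated data with independent noise the gene test recovered 79% of changes of 0.5 log2 among 29766 genes. More genes were given a change there than passed here, which loosens the adjustment, so this share may overstate recovery in these arrays. None of the 10 genes differed by as much as 0.5 log2. The 10 genes and all lists were chosen with earlier results of these data known. Other pathway genes are named if their unadjusted p was under 0.05, or else the 3 of the list with the smallest p. Of 10 receptors 9 were measured, of 20 HIF targets 19 and of 16 other factors 15. Alternatives were a filter on dim genes, other moderation, normalization or weights, the mean of probe sets, a replicate block, and arrays left out. The number of arrays limits the precision. Figures were drawn with matplotlib 3.10.9.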

Additional observations from a re-analysis of the deposited data

Results flagged for a closer look

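Of 48 groups of 5 arrays examined over 24 genes, 3 held an array far from the other 4 of its group, and chance gives about 1 in 20. Vegfb was at 7.95 in runner 2, against 7.76 to 7.80 in the other runners, and control 5 reached 7.96. Ddit4 was at 7.94 in runner 2, against 8.43 to 8.59 in the other runners. Hgf was at 5.07 in runner 1, against 4.52 to 4.67 in the other runners.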

How the results depend on the processing

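None of the 10 genes passed under any of 18 alternatives. Of 179 values, 155 kept their direction and 24 turned, all in the 5 genes with the smallest differences, and no turned value was larger than 0.07 log2. With each array centred on its median, Vegfb (0.01), Epas1 (0.01) and Egln3 (0.02) turned. Repeated quantile normalization turned Egln3 (0.02), and leaving out runner 1 and control 1 together turned Adm (-0.05). With single arrays left out, Vegfb ran between -0.05 and 0.02, Hif1a between -0.01 and 0.04, Epas1 between -0.05 and 0.05, Egln3 between -0.03 and 0.05, and Adm between -0.07 and 0.08.

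Over all genes 2 passed, 15 with array weights, 426 without runner 1 and control 1, and between 2 and 99 with single arrays left out, the most without runner 1. Of the other pathway genes 0 passed, 1 with array weights (Angptl4), 3 without runner 1 and control 1 (Angptl4, Esm1 and Hgf), and between 0 and 1 with single arrays left out; the cause was not tested. Pgf, Aplnr and Hgf could not be fitted under the dim filter, which leaves them out.

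With the replicate number as a block, 2 genes passed and none of the 10 did (Vegfa 0.06, Angpt1 -0.16). Deviations of same-numbered arrays correlated between -0.25 and 0.277, and 1 of 10 arrays correlated best with its own number, so the numbers are not taken to pair the samples.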
